A study of Homo sapiens with 24 samples.

Results

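The genes described here are those of the collagen chains, taken as the protein-coding genes of GENCODE release 44 whose symbol is COL, a number, A and a number with nothing more. The rule found 44 genes, and all 44 were among the 60279 genes of the count tables. A mean of 5 or more counts over the 24 libraries was reached by 34 of them, and these 34 were tested. The 10 that fell short were COL10A1, COL11A1, COL19A1, COL20A1, COL21A1, COL24A1, COL25A1, COL6A5, COL6A6 and COL9A1. Nearest to that limit were COL22A1 with a mean of 6.08 counts inside it and COL10A1 with 3.71 counts outside it.

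Poly(A) RNA was sequenced from SW872 cells, an established human liposarcoma line, which carried a pBabeNeo retroviral vector and had been selected with G418 as pooled stable lines. The 8 groups of 3 libraries were YAP5SA, TFE3, YAP-TFE3, TAZ4SA, TAZ-CAMTA1 and empty vector (EV), all collected 48 h after confluence, and CAMTA1 and a further empty vector set (EVsub), collected sub-confluent. TAZ-CAMTA1 and YAP-TFE3 are the fusion proteins of epithelioid hemangioendothelioma, TAZ4SA and YAP5SA are forms of TAZ and YAP whose serines for the LATS kinases were replaced by alanine, and CAMTA1 and TFE3 are the full-length transcription factors behind the C-terminal parts of the fusions. All constructs were driven by the viral vector in 1 cell line, so the groups model forced expression in liposarcoma cells and not the tumour. WWTR1, the gene of TAZ, was lower in the libraries labelled TAZ4SA than in EV (135, 134 and 134 against 225, 203 and 184 CPM, the count over the TMM-scaled library size). That goes against the label, and a direction drawn from that group rests on a label its own RNA did not bear out. The paper reports expression of the Flag-tagged TAZ4SA protein in SW872 cells by western blot, which was not examined here. CAMTA1, TFE3 and YAP1 were higher in their groups, at log2 fold changes of 2.75 and 2.43 for CAMTA1, 1.49 and 1.25 for TFE3 and 0.99 and 0.26 for YAP1 in its 2 groups. The lower YAP1 value, 0.26, is too small to bear out a label by itself, and WWTR1 in TAZ-CAMTA1 is not given here.

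Collagens are secreted proteins whose chains wind into helical trimers, and the classes differ in what the trimers build. Fibrillar chains form the cross-striated fibrils that give connective tissue its strength, type IV chains form the sheet-like mesh of basement membranes, type VIII and type X chains form hexagonal networks, and FACIT chains (fibril-associated collagens with interrupted triple helices) coat the surface of fibrils. Further classes are the beaded filaments of type VI, the anchoring fibrils of type VII, transmembrane collagens and the multiplexins, types XV and XVIII, which sit at basement membranes.

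Total counts per library lay between 19700277 and 35287476, and the collagen genes together took 0.216% to 0.430% of them. Libraries of one group were not duplicates of each other (chi-square per degree of freedom 3.33 to 71.3, highest for pairs with YAP-TFE3 library 3). The paper states that triplicates came from separate transductions and selections, so p-values measure the spread between such pooled lines. Of the 34 tested chains, 21 overlap another annotated gene, 18 of them one on the other strand, and strand use in the counting is not given in the sources used here. Of the markers checked, the 6 mesenchymal ones (VIM, SPARC, FN1, THY1, PDGFRB and S100A4) were detected in every library. Among the mature adipocyte markers ADIPOQ was at 0 in all libraries, LEP and CIDEC had at most 2 and 3 counts, FABP4 at most 23 and PLIN1 at most 38. Of the blood cell markers PTPRC had at most 1 count, HBB at most 13, CD3E at most 36 and CD14, which was counted in every library, at most 46. Epithelial markers (EPCAM, CDH1, KRT5, KRT19 and ESRP1) summed to 6.04 to 14.5 CPM in YAP-TFE3 and to at most 4.75 in the other groups. Over all libraries ESRP1 alone reached 13.0 CPM, KRT5 reached 3.4, and EPCAM, CDH1 and KRT19 had at most 1.86, 1.85 and 0.451. The endothelial markers CDH5 and TEK were counted in every group, and PECAM1, CDH5, VWF and TEK together made 68.7 to 93.1 CPM in EV, 71 to 99.1 in TFE3, 106 to 136 in TAZ-CAMTA1, 60.8 to 68.6 in YAP-TFE3, 36.2 to 55.8 in the libraries labelled TAZ4SA, 22.5 to 32.1 in YAP5SA, 33.6 to 51.1 in EVsub and 28.4 to 38.2 in CAMTA1. The summed mesenchymal markers lay at 6329 to 7421 CPM in EV, 7244 to 9414 in TFE3, 7586 to 9819 in TAZ-CAMTA1, 7035 to 7743 in YAP-TFE3, 2387 to 3594 in the libraries labelled TAZ4SA, 2758 to 4707 in YAP5SA, 3751 to 3940 in EVsub and 3842 to 4752 in CAMTA1. Within the mesenchymal list FN1 and SPARC had the highest medians over all libraries, 2705 and 1367 CPM, so these genes weigh most in its sum. The marker sums moved with some of the changes below, and their part in them was not tested. In RNA from whole cultures, fewer cells that express a gene and less RNA per cell cannot be told apart.

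Levels between genes are compared as CPM per kilobase of exon. Over the 24 libraries the highest means were those of COL6A1 (83.8) and COL6A2 (71.8), chains of the microfibrils of type VI, followed by COL15A1 (61.04), a multiplexin, and COL5A1 (58.7), the chain of the minor fibrillar type V that nucleates fibrils. COL9A3 (21.3), COL18A1 (15.2) and COL16A1 (13.5) completed the 7 genes above 10 CPM per kilobase. COL12A1 (9.99), COL1A2 (8.74), COL27A1 (7.59), COL4A2 (7.41) and COL8A1 (6.65) came next. COL1A1 and COL3A1, the main chains of skin and most other connective tissue, stood at 2.801 and 1.53.

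Summed over the chains of a class, beaded filament chains were the largest class in EV at 217 ± 2.79 CPM per kilobase (SD, n = 3), and they stood at 103 ± 12.1 in YAP5SA, 129.6 ± 15.8 in the libraries labelled TAZ4SA and 137 ± 9.101 in YAP-TFE3. Multiplexin chains were the largest class in YAP-TFE3, at 189.5 ± 46.6 against 84.5 ± 6.51 in EV and 29.3 ± 3.61 in YAP5SA. Fibrillar chains summed to 78.9 ± 2.42 in EV, 107 ± 4.67 in TAZ-CAMTA1, 106 ± 10.5 in YAP-TFE3, 115 ± 19.02 in YAP5SA and 65.01 ± 11.1 in the libraries labelled TAZ4SA. FACIT chains had their highest sum in YAP5SA at 75.5 ± 5.796 against 44.1 ± 5.43 in EV. Network chains went from 7.32 ± 0.874 in EV to 22.3 ± 4.44 in YAP5SA and 26.3 ± 5.44 in the libraries labelled TAZ4SA. Basement membrane chains lay between 16.4 ± 1.88 in EVsub and 24.3 ± 0.964 in YAP-TFE3. Single chains weigh most in some of these sums. Over the 24 libraries COL5A1 had a mean of 58.7 CPM per kilobase where COL1A2, the next fibrillar chain, had 8.74. Among the multiplexins COL15A1 had 61.04 and COL18A1 15.2, and among the network chains COL8A1 had 6.65 and COL8A2 3.71. A moved sum is thus not a change of every chain of its class. These sums are descriptions, and no test was run on them.

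**Figure D1:**
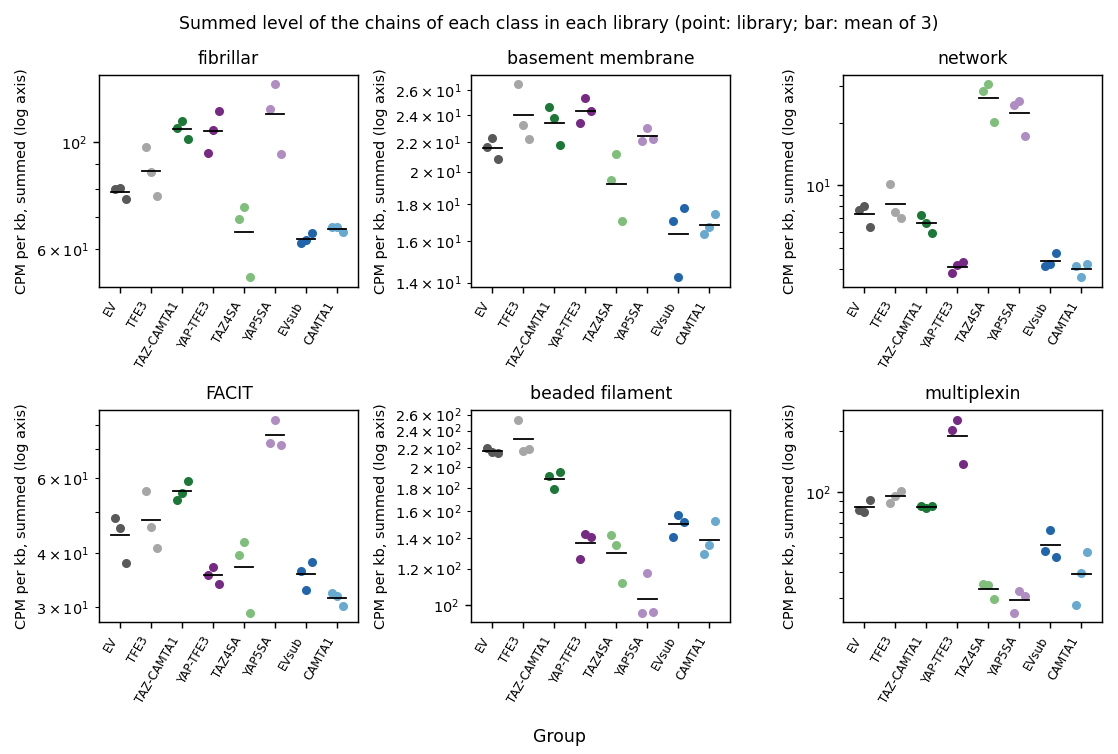
Summed level of the chains of 6 collagen classes in each library, as CPM per kilobase of exon on a log axis, for the 8 groups on the horizontal axis; points are libraries and bars are means of 3. Network chains sit near 22.3 in YAP5SA and 26.3 in the libraries labelled TAZ4SA against 7.3 in EV, and multiplexin chains reach 190 in YAP-TFE3 against 84.5 in EV.

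The comparisons with empty vector asked what each protein does to the transcriptome of the same cells, and those between proteins asked how a fusion differs from another form of TAZ or YAP. Changes were tested with edgeR on all 19997 genes with a mean of 5 or more counts and called at a Benjamini-Hochberg adjusted p under 0.05, and the shares of all genes called are given beside the counts of chains. In TAZ-CAMTA1 against EV, 6 of the 34 chains rose and 1 fell (17.6% and 2.94%), where 3.55% and 1.44% of all genes did, 4.98% in all. In the libraries labelled TAZ4SA, 7 rose and 14 fell (20.6% and 41.2%) beside 25.1% and 24.2% of all genes, 49.2% in all. In YAP-TFE3, 9 rose and 10 fell (26.5% and 29.4%) beside 25.6% and 22.6%, 48.2% in all. In YAP5SA, 11 rose and 11 fell (32.4% each) beside 22.7% and 21.6%, 44.3% in all. The counts of risen chains in YAP-TFE3 and in the libraries labelled TAZ4SA were thus close to the shares among all genes. Without COL4A3 and COL22A1, which passed the filter only through YAP-TFE3, 7 of 32 chains rose in that group (21.9%).

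Full-length TFE3 against EV gave 0 calls among the chains by edgeR and 0 by DESeq2, with 6 of 34 at an unadjusted p under 0.05, beside 0.035% of all genes called, all of them higher (0.035% and 0%). CAMTA1 against EVsub gave 2 risen chains and 1 fallen (5.88% and 2.94%) beside 1.26% and 0.57%, 1.83% in all. Between the empty vector sets, EVsub against EV, 2 chains rose and 15 fell (5.88% and 44.1%), where 19.8% and 17.1% of all genes did, 36.8% in all.

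Between proteins, TAZ-CAMTA1 had 15 chains higher and 5 lower than the libraries labelled TAZ4SA (44.1% and 14.7%, beside 26.9% and 26.8%, 53.7% in all). YAP-TFE3 had 13 higher and 11 lower than YAP5SA (38.2% and 32.4%, beside 28.1% and 24.3%, 52.4% in all). TAZ-CAMTA1 had 13 higher and 6 lower than YAP-TFE3 (38.2% and 17.6%, beside 19.9% and 22.8%, 42.7% in all). Without COL4A3 and COL22A1, YAP-TFE3 had 11 of 32 higher than YAP5SA (34.4%) and TAZ-CAMTA1 4 of 32 lower than YAP-TFE3 (12.5%). The libraries labelled TAZ4SA had 1 higher and 11 lower than YAP5SA (2.94% and 32.4%, beside 3.53% and 3.64%, 7.17% in all). The median log2 fold change of the 34 chains lay between -0.32 in EVsub against EV and 0.34 in TAZ-CAMTA1 against the libraries labelled TAZ4SA, where the medians of all tested genes were -0.02 and 0.03.

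Scaling by total counts in place of TMM lowered the median log2 fold change of all genes by 0.20 in the libraries labelled TAZ4SA against EV and by 0.18 in YAP5SA against EV. Under it 4 chains rose and 15 fell in the former, where 3355 genes of all rose and 7318 fell in place of 5013 and 4835, and 10 rose and 13 fell in the latter, where 3135 rose and 6840 fell in place of 4534 and 4325. In YAP-TFE3 against EV 9 chains rose and 11 fell under it, and the split of all genes turned (4319 and 5538 in place of 5126 and 4519). The splits of all genes also moved in YAP-TFE3 against YAP5SA (6562 and 4044 in place of 5618 and 4867). They moved as well in EVsub against EV (3109 and 4286 in place of 3956 and 3412), CAMTA1 against EVsub (222 and 169 in place of 252 and 114), TAZ-CAMTA1 against the libraries labelled TAZ4SA (7486 and 3695 in place of 5376 and 5354) and TAZ-CAMTA1 against YAP-TFE3 (5098 and 3762 in place of 3970 and 4564). None of the 30 changes taken by the rule for named genes reversed its sign under this scaling. Changes of about 0.2 on the log2 scale in the first pair of comparisons therefore depend on the scaling.

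**Figure D2:**
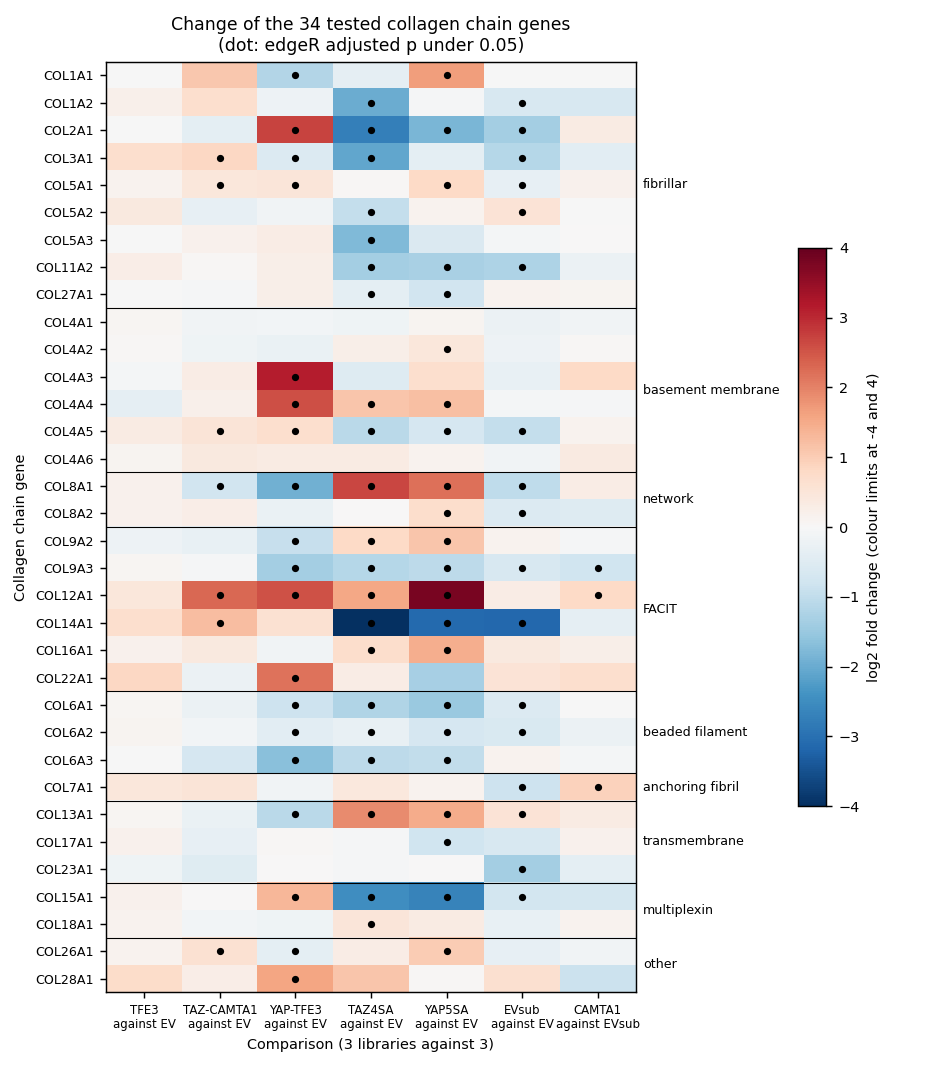
Log2 fold change of the 34 tested collagen chain genes (rows, by class) in 7 comparisons with an empty vector group (columns, 3 libraries against 3), with a dot where the edgeR adjusted p was under 0.05. COL12A1 is red in the columns of TAZ-CAMTA1, YAP-TFE3, TAZ4SA and YAP5SA (2.29, 2.56, 1.53 and 3.80), and the column of TFE3 holds no dot.

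Of the 9 fibrillar chains tested, 7 fell in the libraries labelled TAZ4SA and 0 rose, with a median log2 fold change of -1.36 (-0.03 over all genes). Of all genes, 24.2% fell there. In TAZ-CAMTA1 2 rose and 0 fell (3.55% and 1.44% of all genes), in YAP-TFE3 2 rose and 2 fell (25.6% and 22.6%), in YAP5SA 2 rose and 3 fell (22.7% and 21.6%), and in EVsub 1 rose and 5 fell (19.8% and 17.1%). The fibrillar shares in YAP-TFE3, 22.2% in each direction, and the risen share in YAP5SA, also 22.2%, were near those of all genes. Type I collagen, the main protein of bone and tendon, is built of the COL1A1 and COL1A2 chains. COL1A1 (ENSG00000108821, chr17:50184101-50201632, minus strand) had 24.3, 19.4 and 14.002 CPM in the EV libraries, 45.2, 50.5 and 26.6 in TAZ-CAMTA1, 9.29, 9.51 and 6.82 in YAP-TFE3, 72.3, 85.4 and 27.5 in YAP5SA and 19.8, 17.6 and 7.905 in the libraries labelled TAZ4SA. All 3 YAP5SA libraries lay above all EV libraries and all 3 YAP-TFE3 libraries below them. It was raised in YAP5SA (log2 change 1.67 ± SE 0.33, adjusted p by edgeR = 0.000243) and lowered in YAP-TFE3 (log2 change -1.18 ± SE 0.35, adjusted p by edgeR = 0.0067), and YAP-TFE3 and YAP5SA differed directly (log2 change -2.85 ± SE 0.35, adjusted p by edgeR = 2.99e-07). In TAZ-CAMTA1 the libraries also lay above EV, but the difference did not pass (log2 change 1.08 ± SE 0.33, adjusted p by edgeR = 0.0598). It passed with no filter beyond 1 count, with the groups compared alone, with the replicate block, with GC and length offsets, with the offsets and the block together, without TAZ-CAMTA1 library 3 and on the libraries numbered 1 and 2 alone.

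COL1A2 (ENSG00000164692, chr7:94394895-94431227, plus strand) took another course. Its EV libraries had 109.5, 114 and 105 CPM, TAZ-CAMTA1 194, 185 and 149, YAP-TFE3 83.9, 101 and 97.8, YAP5SA 136, 120.5 and 62.9, the libraries labelled TAZ4SA 33.6, 32.9 and 17.04 and EVsub 68.2, 77.3 and 65.9. The libraries labelled TAZ4SA were far below EV with no overlap, while those of YAP5SA lay on both sides of it. It fell in the former (log2 change -1.98 ± SE 0.24, adjusted p by edgeR = 2.8e-07) and in EVsub (log2 change -0.64 ± SE 0.23, adjusted p by edgeR = 0.0303), a call that was lost without any one of EV library 1, EV library 2, EV library 3, EVsub library 1 and EVsub library 3 (log2 fold change -0.64, -0.60, -0.67, -0.61 and -0.59). TAZ-CAMTA1 lay above EV in all libraries without passing (log2 change 0.68 ± SE 0.23, adjusted p by edgeR = 0.0861), nor did YAP5SA pass (log2 change -0.04 ± SE 0.23, adjusted p by edgeR = 0.891), and the libraries labelled TAZ4SA were lower than YAP5SA (log2 change -1.93 ± SE 0.24, adjusted p by edgeR = 6.17e-06). Between the fusions, COL1A2 and COL1A1 were both higher in TAZ-CAMTA1 than in YAP-TFE3 (log2 fold change 0.90 and 2.26, adjusted p by edgeR = 0.00234 and 1.1e-05).

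Type III collagen is a homotrimer of COL3A1 chains and lies beside type I in distensible tissues. COL3A1 (ENSG00000168542, chr2:188974373-189012746, plus strand) had 12.5, 11.995 and 11.7 CPM in EV, 23.5, 19.5 and 21.03 in TAZ-CAMTA1, 19.3, 17.8 and 20.2 in TFE3, 7.34, 8.57 and 8.93 in YAP-TFE3, 10.8, 10.03 and 6.75 in YAP5SA, 3.21, 3.43 and 2.01 in the libraries labelled TAZ4SA and 4.803, 6.04 and 5.73 in EVsub. No library of any of these groups overlapped EV. It rose in TAZ-CAMTA1 (log2 change 0.82 ± SE 0.17, adjusted p by edgeR = 0.00303) and fell in the libraries labelled TAZ4SA (log2 change -2.07 ± SE 0.19, adjusted p by edgeR = 4.25e-09), in EVsub (log2 change -1.13 ± SE 0.18, adjusted p by edgeR = 4.81e-05) and in YAP-TFE3 (log2 change -0.54 ± SE 0.17, adjusted p by edgeR = 0.0114), where the call was lost without YAP-TFE3 library 1 (log2 fold change -0.46). In TFE3 and YAP5SA the log2 fold changes of 0.66 and -0.39 did not pass (adjusted p by edgeR = 0.488 and 0.0677). COL3A1 lies tail to tail with COL5A2 on chromosome 2 (ENSG00000204262, chr2:189031898-189225312, minus strand), and the neighbours did not share their changes in EVsub. There COL5A2 rose, from 7.28, 6.44 and 6.25 CPM in EV to 10.02, 8.24 and 11.01 (log2 change 0.55 ± SE 0.19, adjusted p by edgeR = 0.0254), a call that was lost without any one of EV library 2, EV library 3, EVsub library 1 and EVsub library 3 (log2 fold change 0.53, 0.51, 0.54 and 0.46) and that was also lost on the libraries numbered 1 and 2 alone (0.42). In the libraries labelled TAZ4SA COL5A2 fell (3.81, 3.78 and 2.74 CPM, log2 change -0.96 ± SE 0.21, adjusted p by edgeR = 0.00052).

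COL2A1 (ENSG00000139219, chr12:47972967-48004554, minus strand), the chain of cartilage type II collagen, separated YAP-TFE3 from every other group. It had 44.8, 51.7 and 93.5 CPM there, 7.73, 10.2 and 11.2 in EV, 10.6, 8.55 and 9.301 in TFE3, 6.78, 6.64 and 8.58 in TAZ-CAMTA1, 2.502, 2.28 and 3.41 in YAP5SA, 1.57, 1.63 and 1.16 in the libraries labelled TAZ4SA and 3.66, 4.23 and 3.58 in EVsub. Every YAP-TFE3 library was above every library of the other groups, and library 3 was the highest. COL2A1 rose in YAP-TFE3 (log2 change 2.71 ± SE 0.22, adjusted p by edgeR = 5.01e-10) and fell in the libraries labelled TAZ4SA (log2 change -2.74 ± SE 0.27, adjusted p by edgeR = 1.54e-08), YAP5SA (log2 change -1.81 ± SE 0.25, adjusted p by edgeR = 2.93e-06) and EVsub (log2 change -1.35 ± SE 0.24, adjusted p by edgeR = 0.00016). YAP-TFE3 was higher than YAP5SA (log2 change 4.52 ± SE 0.25, adjusted p by edgeR = 5.68e-13) and than TAZ-CAMTA1 (log2 fold change of TAZ-CAMTA1 against YAP-TFE3 -3.11, SE 0.23, adjusted p by edgeR = 1.02e-10). On the libraries numbered 1 and 2 alone the rise in YAP-TFE3 was 2.43 on the log2 scale.

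COL5A1 (ENSG00000130635, chr9:134641803-134844843, plus strand) was the most abundant fibrillar chain per kilobase in all 8 groups. It had 562, 573 and 547 CPM in EV, 746, 777 and 765 in TAZ-CAMTA1, 704, 793 and 846 in YAP-TFE3, 965, 1122 and 863 in YAP5SA, 610.0, 656 and 481 in the libraries labelled TAZ4SA and 439.9, 429.9 and 467 in EVsub. The first 3 of these protein groups lay above EV without overlap, and EVsub below it. It rose in YAP5SA (log2 change 0.81 ± SE 0.11, adjusted p by edgeR = 1.18e-06), YAP-TFE3 (log2 change 0.48 ± SE 0.11, adjusted p by edgeR = 0.000637) and TAZ-CAMTA1 (log2 change 0.44 ± SE 0.11, adjusted p by edgeR = 0.013), the last of which was lost without EV library 3 (log2 fold change 0.43). It fell in EVsub (log2 change -0.33 ± SE 0.11, adjusted p by edgeR = 0.0171), and this call was lost without any one of EV library 2, EVsub library 1 and EVsub library 2 (log2 fold change -0.32, -0.32 and -0.31), and with offsets for GC content and length (-0.09).

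COL27A1 (ENSG00000196739, chr9:114155537-114312511, plus strand), a fibrillar chain of cartilage, had 116, 108 and 107 CPM in EV, 60.4, 71.9 and 60.8 in YAP5SA and 91.6, 92.1 and 66.3 in the libraries labelled TAZ4SA. YAP5SA lay below EV in all libraries (log2 change -0.77 ± SE 0.12, adjusted p by edgeR = 7.11e-06), and the smaller fall in the libraries labelled TAZ4SA (log2 fold change -0.40) was lost without TAZ4SA library 3 (log2 fold change -0.26). COL11A2 and COL5A3, minor fibrillar chains, fell in the libraries labelled TAZ4SA (-1.36 and -1.75 on the log2 scale). COL11A2 also fell in YAP5SA (-1.31) and EVsub (-1.24), and COL5A3 gave -0.58 in YAP5SA, which did not pass. COL11A1 and COL24A1 were not tested, with at most 3 and 8 counts in any library.

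**Figure D3:**
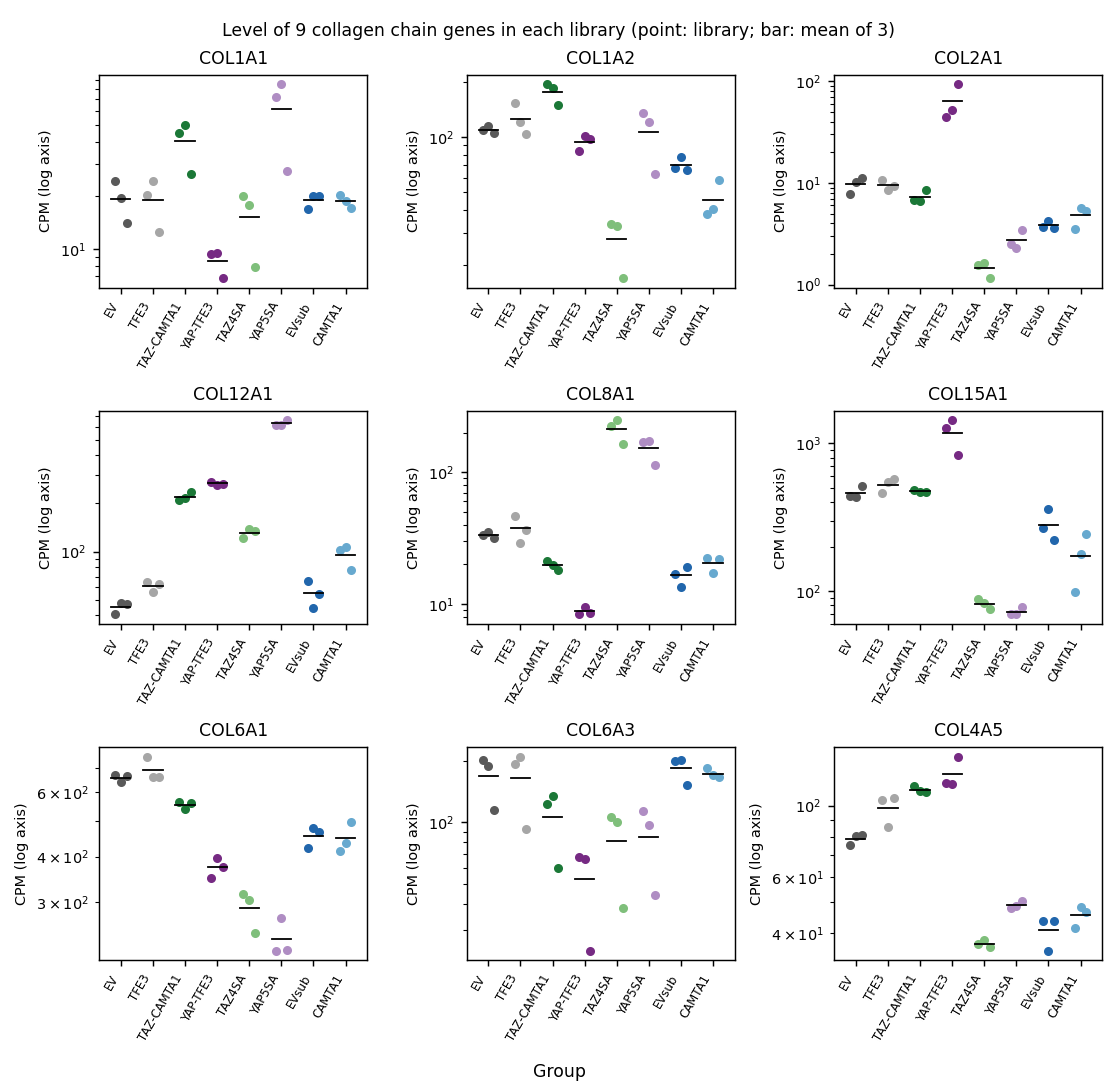
Level of 9 collagen chain genes in each of the 24 libraries, in CPM on a log axis, by group on the horizontal axis; points are libraries and bars are means of 3. COL2A1 and COL15A1 are highest in YAP-TFE3, COL8A1 in YAP5SA and the libraries labelled TAZ4SA, and COL12A1 in YAP5SA, while the lowest COL6A3 library is the one numbered 3 in all 8 groups.

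Among the 6 chains of type IV, which share the basement membrane but sit in head-to-head gene pairs, the abundant pair changed little. COL4A1 (ENSG00000187498, chr13:110148963-110307157, minus strand) had 94.5, 94.6 and 79.3 CPM in EV and group means between 69.1 and 95.6, and it was called in 0 of the 11 comparisons by edgeR and in 0 by DESeq2, with 1 at an unadjusted p under 0.05. Scaled by total counts it was called lower in the libraries labelled TAZ4SA against EV. COL4A2 (ENSG00000134871, chr13:110305812-110513209, plus strand) had 144, 146 and 136 CPM in EV and 189, 205 and 191 in YAP5SA, which did not overlap (log2 change 0.46 ± SE 0.12, adjusted p by edgeR = 0.003). COL4A2 was also lower in YAP-TFE3 than in YAP5SA (log2 fold change -0.73), and lower in TAZ-CAMTA1 than in the libraries labelled TAZ4SA (-0.43), a call lost with total-count scaling (-0.23) and with GC and length offsets (-0.25). Their RefSeq starts lie next to each other on opposite strands, with 126 bases between them on GRCh38.p14. GENCODE starts COL4A2 earlier, at 110305812, so that there the genes overlap. The stretch is shown because in RefSeq both chains are read outward from it (chr13:110307158-110307283, plus strand, a CCAAT box in capitals).
COL4A1 to COL4A2: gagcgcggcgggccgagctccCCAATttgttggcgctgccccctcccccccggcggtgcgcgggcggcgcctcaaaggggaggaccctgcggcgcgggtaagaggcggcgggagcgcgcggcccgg

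The sparse pair COL4A3 and COL4A4, chains of the kidney glomerular and other specialized basement membranes, was highest in YAP-TFE3. COL4A4 (ENSG00000081052, chr2:227002714-227164453, minus strand) had 40, 47 and 51 counts there and 11, 5 and 2 in EV, with 12, 8 and 17 in YAP5SA and 8, 11 and 19 in the libraries labelled TAZ4SA. The YAP-TFE3 libraries were above every library of the other groups (log2 change 2.57 ± SE 0.38, adjusted p by edgeR = 4.89e-06). The calls in YAP5SA (log2 fold change 1.21) and in the libraries labelled TAZ4SA (1.11) rested on few counts. The former was lost without any one of EV library 2, EV library 3, YAP5SA library 1 and YAP5SA library 3 (log2 fold change 1.08, 0.92, 1.19 and 1.00), and the latter was lost without any one of EV library 2, EV library 3, TAZ4SA library 2 and TAZ4SA library 3 (log2 fold change 0.98, 0.82, 1.16 and 0.74). Both were also lost with total-count scaling (1.03 and 0.92), the latter with DESeq2 too (1.13). COL4A3 (ENSG00000169031, chr2:227164624-227314792, plus strand) had 45, 33 and 27 counts in YAP-TFE3 and at most 6 in any library of the other groups (log2 change 3.15 ± SE 0.40, adjusted p by edgeR = 5.23e-07). Its mean without YAP-TFE3 was 3.52 counts, so it entered the test through the group where it is high. Nothing is drawn from its call beyond the counts of chains above, which are also given without it. The RefSeq starts of COL4A4 and COL4A3 are 418 bases apart on opposite strands. GENCODE draws COL4A4 out to 227164453, which takes in most of the stretch below. The 82 bases that the RefSeq upstream windows of both share are shown because COL4A4 had its highest level in YAP-TFE3 (chr2:227164374-227164455, plus strand, GRCh38.p14, no motif searched here in it).
COL4A4 to COL4A3: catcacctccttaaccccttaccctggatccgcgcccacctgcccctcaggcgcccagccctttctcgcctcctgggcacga

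COL4A5 (ENSG00000188153, chrX:108439838-108697545, plus strand), the X-linked chain that joins COL4A3 and COL4A4 in trimers, had 75.1, 80.2 and 80.8 CPM in EV, 115, 111 and 110.3 in TAZ-CAMTA1, 117, 117 and 142 in YAP-TFE3, 47.95, 48.6 and 50.4 in YAP5SA, 36.99, 38.04 and 36.3 in the libraries labelled TAZ4SA and 43.6, 35.4 and 43.9 in EVsub. The fusions lay above EV, and YAP5SA, EVsub and the libraries labelled TAZ4SA below it, with no overlap. It rose in YAP-TFE3 (log2 change 0.67 ± SE 0.09, adjusted p by edgeR = 2.56e-06) and TAZ-CAMTA1 (log2 change 0.51 ± SE 0.09, adjusted p by edgeR = 0.00135) and fell in the libraries labelled TAZ4SA (log2 change -1.08 ± SE 0.10, adjusted p by edgeR = 2.32e-09), EVsub (log2 change -0.94 ± SE 0.10, adjusted p by edgeR = 6.06e-07) and YAP5SA (log2 change -0.68 ± SE 0.10, adjusted p by edgeR = 3.06e-06). Direct comparisons also passed, TAZ-CAMTA1 against the libraries labelled TAZ4SA by 1.59 and YAP-TFE3 against YAP5SA by 1.35 on the log2 scale (SE 0.10 and 0.10, adjusted p by edgeR = 3.52e-12 and 3.58e-11). COL4A5 lay outside the rule for named genes and was chosen after its values were seen. Its partner on the X chromosome, COL4A6, was called in 0 of the 11 comparisons by edgeR and by DESeq2, with 3 at an unadjusted p under 0.05.

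Of the network chains, COL8A1 (ENSG00000144810, chr3:99638475-99799226, plus strand), a chain of the type VIII network found in vessel walls and under the corneal endothelium, was below EV in the fusions and above it in YAP5SA and the libraries labelled TAZ4SA. Its level was 33.2, 35.1 and 31.7 CPM in EV, 171, 173 and 114 in YAP5SA, 224, 247 and 165 in the libraries labelled TAZ4SA, 21.1, 19.7 and 18.2 in TAZ-CAMTA1, 8.32, 9.42 and 8.59 in YAP-TFE3 and 16.96, 13.5 and 18.9 in EVsub. The libraries labelled TAZ4SA and those of YAP5SA were above every library of the other groups, and those of YAP-TFE3 below every one. It rose in the libraries labelled TAZ4SA (log2 change 2.67 ± SE 0.18, adjusted p by edgeR = 1.27e-11) and also YAP5SA (log2 change 2.19 ± SE 0.17, adjusted p by edgeR = 2.89e-10), and fell in YAP-TFE3 (log2 change -1.93 ± SE 0.18, adjusted p by edgeR = 6.06e-09), EVsub (log2 change -1.01 ± SE 0.18, adjusted p by edgeR = 0.000124) and TAZ-CAMTA1 (log2 change -0.76 ± SE 0.17, adjusted p by edgeR = 0.00859). The last call was lost without TAZ-CAMTA1 library 3 (log2 fold change -0.71). Directly, YAP-TFE3 was lower than YAP5SA (log2 change -4.12 ± SE 0.19, adjusted p by edgeR = 2.25e-14) and TAZ-CAMTA1 lower than the libraries labelled TAZ4SA (log2 change -3.43 ± SE 0.18, adjusted p by edgeR = 3.27e-13).

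COL8A2, the partner chain, moved less. It had 18.8, 19.8 and 13.6 CPM in EV and 28.98, 32.7 and 23.9 in YAP5SA, which lay above EV (log2 change 0.71 ± SE 0.18, adjusted p by edgeR = 0.00296), and 20.7, 19.9 and 12.3 in the libraries labelled TAZ4SA, which overlapped EV (log2 fold change 0.01, adjusted p by edgeR = 0.963). In EVsub it fell (-0.55 on the log2 scale), a call that was lost without any one of EV library 1, EV library 2, EVsub library 1 and EVsub library 3 (log2 fold change -0.49, -0.45, -0.47 and -0.57) and with GC and length offsets (-0.29). The third network chain, COL10A1, a marker of hypertrophic cartilage, had at most 11 counts in any library and was not tested.

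COL12A1 (ENSG00000111799, chr6:75084326-75206267, minus strand), the FACIT chain of tendon and other load-bearing tissue, rose in 5 of the 7 comparisons with an empty vector group. It had 40.6, 48.1 and 47.1 CPM in EV, 64.4, 56.2 and 63.2 in TFE3, 121, 138 and 134 in the libraries labelled TAZ4SA, 209.8, 216 and 236 in TAZ-CAMTA1, 273, 262 and 266 in YAP-TFE3, 620.1, 617 and 659 in YAP5SA, 66.02, 44.6 and 54.7 in EVsub and 102, 107 and 76.6 in CAMTA1. The libraries of the 4 groups from TAZ4SA to YAP5SA, in the order given, formed ranges that did not overlap each other or EV. It rose in TAZ-CAMTA1 (log2 change 2.29 ± SE 0.12, adjusted p by edgeR = 3.44e-12), the libraries labelled TAZ4SA (log2 change 1.53 ± SE 0.12, adjusted p by edgeR = 2.52e-10), YAP-TFE3 (log2 change 2.56 ± SE 0.12, adjusted p by edgeR = 4.8e-14), YAP5SA (log2 change 3.80 ± SE 0.13, adjusted p by edgeR = 2.85e-16) and, against EVsub, CAMTA1 (log2 change 0.79 ± SE 0.12, adjusted p by edgeR = 0.00021). YAP5SA was above YAP-TFE3 (log2 fold change of YAP-TFE3 against YAP5SA -1.24, adjusted p by edgeR = 4.05e-09), and TAZ-CAMTA1 above the libraries labelled TAZ4SA (log2 fold change 0.75, adjusted p by edgeR = 8.98e-06). The difference between the fusions did not pass (-0.28, adjusted p by edgeR = 0.0583), nor did those of TFE3 and EVsub from EV (adjusted p by edgeR = 0.597 and 0.0634).

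The 250 bases before the RefSeq start of COL12A1 are shown because its level rose in both fusions, in YAP5SA and in the libraries labelled TAZ4SA, and because they hold GGAATG, the core of the motif of the TEAD factors that TAZ and YAP bind, which starts 167 bases before the start site and is in capitals (chr6:75206054-75206303, minus strand, GRCh38.p14). GENCODE places the start of COL12A1 further out, at 75206267, so most of this stretch, with the motif, lies inside the gene as GENCODE draws it. Of the 35116 RefSeq windows of 250 bases before to 50 after a start, 14.0% held GGAATG on either strand. Among the 32 collagen genes with a window it was found in 3, COL10A1, COL11A2 and COL12A1. COL10A1 was not tested, and COL11A2 fell in YAP5SA and the libraries labelled TAZ4SA. A part of the motif in these changes was not tested. CACGTG, the E-box that TFE3 and its relatives bind, was in 7.26% of windows and in 0 of the 32, and CCAAT in 34.6% and in 12. A match is a run of letters and not a measured binding site.
COL12A1 upstream: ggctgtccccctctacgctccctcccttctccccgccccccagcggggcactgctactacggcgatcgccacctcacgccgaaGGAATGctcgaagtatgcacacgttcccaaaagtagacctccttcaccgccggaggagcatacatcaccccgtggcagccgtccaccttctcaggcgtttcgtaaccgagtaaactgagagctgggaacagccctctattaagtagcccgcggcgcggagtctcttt

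Among the other FACIT chains, COL16A1 (ENSG00000084636, chr1:31652263-31704319, minus strand), a chain of small fibrils in skin and cartilage, had 96.9, 84.5 and 78.1 CPM in EV, 252, 275 and 188 in YAP5SA and 153, 168 and 98.4 in the libraries labelled TAZ4SA, all above EV (log2 change 1.46 ± SE 0.19, adjusted p by edgeR = 6.87e-07 and log2 change 0.69 ± SE 0.18, adjusted p by edgeR = 0.0032). COL14A1 (ENSG00000187955), which binds fibrils in skin and tendon, had 46, 53 and 48 counts in EV, 130, 97 and 182 in TAZ-CAMTA1, 3, 7 and 5 in YAP5SA, 4, 0 and 4 in the libraries labelled TAZ4SA and 3, 9 and 6 in EVsub. Counts in the last 3 groups were near the floor, all below EV without overlap. It fell in YAP5SA (log2 change -3.11 ± SE 0.47, adjusted p by edgeR = 9.34e-06), the libraries labelled TAZ4SA (log2 change -4.13 ± SE 0.53, adjusted p by edgeR = 7.48e-07) and EVsub (log2 change -3.15 ± SE 0.45, adjusted p by edgeR = 1.85e-05). The rise in TAZ-CAMTA1 (log2 change 1.24 ± SE 0.30, adjusted p by edgeR = 0.0154) was lost without any one of EV library 1, EV library 2 and TAZ-CAMTA1 library 3 (log2 fold change 1.09, 1.26 and 1.07).

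COL9A3 (ENSG00000092758, chr20:62816244-62841159, plus strand), a chain of type IX collagen of cartilage, fell in 5 comparisons. It had 171, 163 and 128 CPM in EV, 56.7, 61.2 and 60.5 in YAP-TFE3, 57.4, 90.6 and 76.6 in YAP5SA, 77.1, 79.9 and 52.3 in the libraries labelled TAZ4SA, 94.9, 91.8 and 107 in EVsub and 49.98, 56.1 and 63.2 in CAMTA1. All of these lay below EV, and CAMTA1 below EVsub. The log2 fold changes against EV were -1.37, -1.04, -1.14 and -0.65 in that order (SE 0.16 each, adjusted p by edgeR = 1.85e-07, 1.11e-05, 2.89e-06 and 0.00252). CAMTA1 against EVsub gave -0.80 (adjusted p by edgeR = 0.00656), a call that was lost without CAMTA1 library 1 (log2 fold change -0.72). The gene overlaps TCFL5 on the other strand, and how reads in the overlap were counted is not given in the sources used here. Its partners were far lower, COL9A2 at 0.3898 CPM per kilobase and COL9A1 with at most 6 counts in any library. COL9A2 rose in YAP5SA (1.12 on the log2 scale) and the libraries labelled TAZ4SA (0.81) and fell in YAP-TFE3 (-0.92). The second of these calls was lost without any one of EV library 2, EV library 3, TAZ4SA library 1 and TAZ4SA library 2 (log2 fold change 0.75, 0.74, 0.74 and 0.74), with total-count scaling (0.60) and with GC and length offsets (0.61). The third was lost without any one of EV library 1, YAP-TFE3 library 1 and YAP-TFE3 library 2 (log2 fold change -0.77, -0.80 and -0.73) and with GC and length offsets (-0.79).

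COL22A1 had 15, 13 and 26 counts in YAP-TFE3 and 2, 2 and 5 in EV (log2 change 2.17 ± SE 0.63, adjusted p by edgeR = 0.00675), but its mean without YAP-TFE3 was 4.38 counts, so like COL4A3 it passed the filter through the group where it is high. The FACIT chains COL19A1, COL20A1 and COL21A1 were not tested. COL19A1 had 12, 12 and 15 counts in the YAP-TFE3 libraries and at most 2 in any other library. Set against EV, with 39 counts in one group and 1 in the other, the ratio was 30.4 (95% interval 5.15 to 1233, which covers counting error only). COL25A1 and COL6A5, untested as well, had 6, 7 and 16 and 14, 14 and 9 counts in YAP-TFE3, with ratios to EV of 22.6 (3.75 to 924) and 28.9 (4.87 to 1171). These were picked out after their counts were seen. Such ratios were taken only where all libraries of one group had over 3 counts and all of the other 3 or fewer. The separation was thus set by the choice, and the intervals are no test of it. COL20A1 and COL6A6 had at most 5 counts in any library and COL21A1 at most 14.

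The tested chains of the type VI beaded filaments were all called lower in some groups but not in others. In YAP-TFE3, YAP5SA and the libraries labelled TAZ4SA 3 of 3 tested chains fell, where 22.6%, 21.6% and 24.2% of all genes did. In EVsub 2 of 3 fell (17.1% of all genes) and in TAZ-CAMTA1 0 of 3 by edgeR (1.44%). COL6A1 (ENSG00000142156, chr21:45981770-46005050, plus strand) had 670.3, 642 and 664 CPM in EV, 565, 541 and 559.9 in TAZ-CAMTA1, 348, 398 and 375 in YAP-TFE3, 221, 272 and 222 in YAP5SA, 316, 305 and 246 in the libraries labelled TAZ4SA and 423, 478 and 466 in EVsub. All of these groups lay below EV without overlap. The log2 fold changes were -0.82, -1.47, -1.19 and -0.53 for the last 4 (SE 0.10 each, adjusted p by edgeR = 2.44e-07, 1.87e-11, 6.91e-10 and 0.000217), and -0.25 in TAZ-CAMTA1 did not pass (adjusted p by edgeR = 0.164).

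COL6A2 (ENSG00000142173, chr21:46098112-46132848, plus strand), the neighbour of COL6A1 on chromosome 21 and its partner in the trimer, had 476, 486 and 474 CPM in EV, 319, 361 and 384 in YAP-TFE3, 272, 339 and 289 in YAP5SA, 294, 328 and 320.4 in EVsub and 425, 404 and 349 in the libraries labelled TAZ4SA. All were below EV, by log2 fold changes of -0.43, -0.67, -0.61 and -0.29 (SE 0.10 each, adjusted p by edgeR = 0.00138, 1.2e-05, 0.000114 and 0.0263). The last of these was lost without any one of EV library 1, EV library 2 and TAZ4SA library 3 (log2 fold change -0.29, -0.27 and -0.21) and on the libraries numbered 1 and 2 alone (-0.21).

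COL6A3 (ENSG00000163359, chr2:237324003-237414328, minus strand), the largest chain of the trimer, had 203, 188 and 115 CPM in EV, 124, 135 and 60.2 in TAZ-CAMTA1, 68.05, 66.3 and 23.6 in YAP-TFE3, 114, 97.5 and 44.3 in YAP5SA, 106, 100.5 and 38.3 in the libraries labelled TAZ4SA and 199, 203 and 153 in EVsub. The library numbered 3 was the lowest in all 8 groups for COL6A3, the only tested chain of which this was true, and in 7 of 8 for COL1A1, COL13A1 and COL16A1. It fell in YAP-TFE3 (log2 change -1.68 ± SE 0.40, adjusted p by edgeR = 0.0013). The falls in the libraries labelled TAZ4SA (log2 change -1.05 ± SE 0.40, adjusted p by edgeR = 0.0314) and for YAP5SA (log2 change -0.99 ± SE 0.40, adjusted p by edgeR = 0.0459) were less certain, since the former was lost without any one of EV library 1, EV library 2 and TAZ4SA library 3 (log2 fold change -0.89, -0.97 and -0.71) and the latter was lost without any one of EV library 1, EV library 2, YAP5SA library 2 and YAP5SA library 3 (log2 fold change -0.83, -0.90, -1.10 and -0.68) and with DESeq2 (-0.98). All 3 calls stood on the libraries numbered 1 and 2 alone.

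The multiplexin COL15A1 (ENSG00000204291, chr9:98943179-99070792, plus strand), a proteoglycan at the outer side of basement membranes, had 443, 435 and 515 CPM in EV, 1267, 1429 and 829 in YAP-TFE3, 484, 471 and 467 in TAZ-CAMTA1, 69.3, 69.4 and 78.04 in YAP5SA, 87.8, 83.3 and 75.1 in the libraries labelled TAZ4SA and 268, 357 and 220.4 in EVsub. YAP-TFE3 lay above every other library, with its library 3 lowest of the 3, and the libraries labelled TAZ4SA and those of YAP5SA lay below every other library. It rose in YAP-TFE3 (log2 change 1.34 ± SE 0.22, adjusted p by edgeR = 1.81e-05) and fell in the libraries labelled TAZ4SA (log2 change -2.50 ± SE 0.23, adjusted p by edgeR = 3.34e-09), YAP5SA (log2 change -2.68 ± SE 0.23, adjusted p by edgeR = 1.16e-09) and EVsub (log2 change -0.72 ± SE 0.22, adjusted p by edgeR = 0.0113), a call that was lost without either of EV library 3 and EVsub library 3 (log2 fold change -0.64 and -0.57) and on the libraries numbered 1 and 2 alone (-0.49). YAP-TFE3 exceeded YAP5SA by 4.02 and TAZ-CAMTA1 the libraries labelled TAZ4SA by 2.53 on the log2 scale (SE 0.24 and 0.23, adjusted p by edgeR = 2.27e-12 and 2.64e-09). TAZ-CAMTA1 did not differ from EV beyond the threshold (log2 change 0.03 ± SE 0.21, adjusted p by edgeR = 0.963).

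COL18A1 (ENSG00000182871, chr21:45405165-45513720, plus strand), the other multiplexin and the source of endostatin, had 129, 122 and 122 CPM in EV and 185, 186 and 155 in the libraries labelled TAZ4SA, which lay above EV (log2 change 0.49 ± SE 0.14, adjusted p by edgeR = 0.00415). Scaled by total counts that call was lost (0.29). Its level in YAP5SA, 126, 185 and 158 CPM, overlapped EV (0.33 on the log2 scale, adjusted p by edgeR = 0.0516).

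Transmembrane COL13A1 (ENSG00000197467, chr10:69801880-69964275, plus strand), which sits at cell adhesion sites and the neuromuscular junction, had 20.9, 22.9 and 15.6 CPM in EV, 55.8, 60.8 and 50.4 in YAP5SA, 79.1, 85.1 and 55.1 in the libraries labelled TAZ4SA, 10.7, 10.01 and 7.78 in YAP-TFE3 and 29.96, 23.9 and 32.7 in EVsub. YAP-TFE3 lay below EV and the others above it, without overlap. It rose in the libraries labelled TAZ4SA (log2 change 1.88 ± SE 0.18, adjusted p by edgeR = 6.62e-09) and YAP5SA (log2 change 1.49 ± SE 0.18, adjusted p by edgeR = 2.75e-07) and fell in YAP-TFE3 (log2 change -1.07 ± SE 0.18, adjusted p by edgeR = 3.89e-05). The rise in EVsub (log2 change 0.54 ± SE 0.18, adjusted p by edgeR = 0.0193) was lost without any one of EV library 3, EVsub library 1 and EVsub library 3 (log2 fold change 0.40, 0.52 and 0.44) and on the libraries numbered 1 and 2 alone (0.30). COL23A1, another transmembrane chain at few counts, had 25, 15 and 13 counts in EV and 5, 10 and 7 in EVsub, where it fell (log2 change -1.37 ± SE 0.39, adjusted p by edgeR = 0.0084). This call was lost without EVsub library 3 (log2 fold change -1.14) and on the libraries numbered 1 and 2 alone (-1.20). It was also lost with GC and length offsets and the replicate block together (-1.06).

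COL7A1 (ENSG00000114270, chr3:48564073-48595329, minus strand), the single chain of the anchoring fibrils of skin, had 5.59, 4.46 and 6.105 CPM in EV, 3.202, 2.52 and 3.29 in EVsub and 6.796, 5.65 and 4.52 in CAMTA1. CAMTA1 lay above EVsub in all libraries and EVsub below EV. It fell in EVsub (log2 change -0.83 ± SE 0.20, adjusted p by edgeR = 0.0022) and rose in CAMTA1 against EVsub (log2 change 0.91 ± SE 0.20, adjusted p by edgeR = 0.0105), where the call was lost without either of CAMTA1 library 1 and EVsub library 2 (log2 fold change 0.76 and 0.81). Of the remaining chains, COL26A1 rose in YAP5SA and TAZ-CAMTA1 (log2 fold change 1.01 and 0.62) and fell in YAP-TFE3 (-0.40), COL17A1 fell in YAP5SA (-0.80) and COL28A1 rose in YAP-TFE3 (1.58, from 12, 5 and 3 to 21, 19 and 37 counts). The COL17A1 call was lost without any one of EV library 1, EV library 2, YAP5SA library 1 and YAP5SA library 3 (log2 fold change -0.73, -0.71, -0.88 and -0.58). The COL26A1 call in TAZ-CAMTA1 was lost without EV library 3 (log2 fold change 0.58). Its call in YAP-TFE3 was lost without any one of EV library 1, EV library 2 and YAP-TFE3 library 1 (log2 fold change -0.40, -0.36 and -0.29), with no filter beyond 1 count (-0.37), with the groups compared alone (-0.41) and with GC and length offsets (-0.27).

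The ratio of one chain to its partner in the same trimer, both per kilobase, was taken in each library, with no test. COL1A1 to COL1A2 was 0.266, 0.204 and 0.161 in EV, 0.6401, 0.851 and 0.525 in YAP5SA, 0.709, 0.642 and 0.557 in the libraries labelled TAZ4SA and 0.133, 0.113 and 0.0837 in YAP-TFE3. It stayed below 1 in every library, and the first pair of protein groups lay above EV and the last below. COL6A1 to COL6A2 was 1.36, 1.27 and 1.35 in EV, 1.65, 1.62 and 1.64 in CAMTA1, 0.782, 0.772 and 0.739 in YAP5SA and 0.717, 0.727 and 0.6797 in the libraries labelled TAZ4SA. Thus the order of these neighbours turned in the last 2 groups.

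COL8A1 to COL8A2 was 0.875, 0.882 and 1.16 in EV, 2.92, 2.63 and 2.38 in YAP5SA, 5.36, 6.17 and 6.67 in the libraries labelled TAZ4SA, 0.452, 0.464 and 0.4897 in TAZ-CAMTA1 and 0.305, 0.321 and 0.274 in YAP-TFE3. Both fusions lay below EV, and YAP5SA and the libraries labelled TAZ4SA above it. COL4A1 to COL4A2 was 0.865, 0.852 and 0.765 in EV, 0.676, 0.635 and 0.626 in YAP5SA and 0.603, 0.638 and 0.6296 in the libraries labelled TAZ4SA, lower in both of the last groups. COL5A1 exceeded COL5A2 in every library, by 28.8, 34.2 and 27.8 in EVsub and 105, 114 and 115 in the libraries labelled TAZ4SA, with 50.6, 58.4 and 57.4 in EV. COL6A3 to COL6A1 was 0.0779, 0.0752 and 0.0446 in EV and 0.0502, 0.0429 and 0.0162 in YAP-TFE3, lowest in the library numbered 3 of every group.

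**Figure D4:**
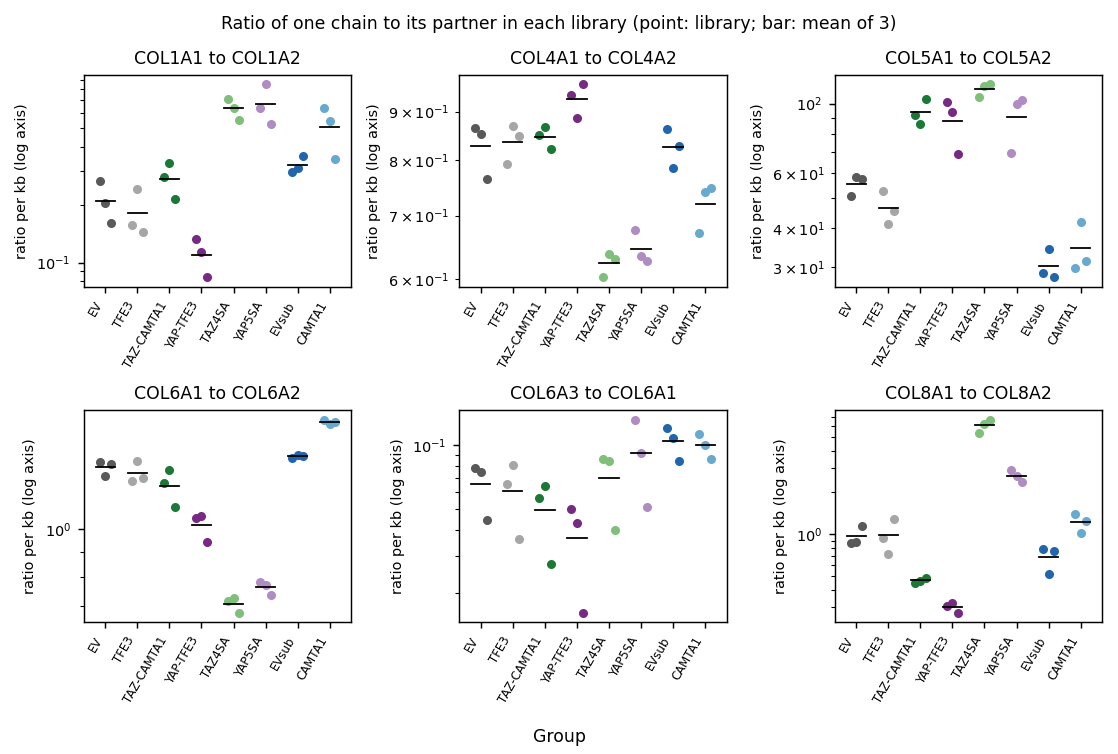
Ratio of one collagen chain to its partner in the same trimer, each as counts per kilobase of exon, on a log axis, in each library by group on the horizontal axis; points are libraries and bars are means of 3. COL6A1 to COL6A2 lies at 1.27 to 1.36 in EV and at 0.68 to 0.782 in YAP5SA and the libraries labelled TAZ4SA, and COL8A1 to COL8A2 spans 0.274 in YAP-TFE3 to 6.67 in the libraries labelled TAZ4SA.

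The fusions were then set against YAP5SA and the libraries labelled TAZ4SA. All 9 fibrillar chains tested were higher in TAZ-CAMTA1 than in the libraries labelled TAZ4SA, by 0.35 (COL27A1) to 2.89 (COL3A1) on the log2 scale and a median of 1.43, where the median of all genes was 0.03 and 26.9% of all genes were called higher. Under total-count scaling and with offsets for GC content and length the 9 calls stood. Without TAZ4SA library 3 the calls of COL27A1 (0.21) and COL5A2 (0.50) were lost. That of COL27A1 was also lost without TAZ-CAMTA1 library 2 (0.25) and on the libraries numbered 1 and 2 alone (0.24). In YAP-TFE3 against YAP5SA COL2A1, COL11A2, COL27A1 and COL5A3 were higher (4.52, 1.56, 0.999 and 0.89), 44.4% of the class beside 28.1% of all genes. COL1A1 and COL5A1 were lower (-2.85 and -0.33), 22.2% of the class and near the 24.3% of all genes. The COL5A1 call was lost without either of YAP-TFE3 library 1 and YAP5SA library 2 (log2 fold change -0.26 and -0.23) and in a fit of the groups compared alone (-0.34). The libraries labelled TAZ4SA were lower than YAP5SA in 6 of 9 fibrillar chains, where 3.64% of all genes were lower. These were COL1A1, COL1A2, COL3A1, COL5A3, COL5A2 and COL5A1, with log2 fold changes from -0.76 to -2.03. COL12A1 was lower as well (-2.27).

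Genes that modify, process, cross-link or bind collagen were counted from lists of 21, 13 and 11 genes, of which 21, 12 and 10 were tested (TLL1 and GP6 were not). Of the enzymes and chaperones of chain modification and folding, 10 rose and 4 fell in YAP-TFE3 (25.6% and 22.6% of all genes) and 9 and 3 in YAP5SA (22.7% and 21.6%). In turn 5 rose and 3 fell in the libraries labelled TAZ4SA (25.1% and 24.2%), 2 and 0 in TAZ-CAMTA1 (3.55% and 1.44%) and 3 and 10 in EVsub (19.8% and 17.1%). The counts in the libraries labelled TAZ4SA, 23.8% and 14.3% of the list, were near or below those of all genes. So were the fallen shares in YAP-TFE3 (19%) and YAP5SA (14.3%) and the risen share in EVsub (14.3%). SERPINH1, the collagen chaperone HSP47, had 961, 1019 and 1053 CPM in EV and 2263, 2632 and 2515 in YAP-TFE3, with no overlap (log2 change 1.29 ± SE 0.09, adjusted p by edgeR = 1.39e-11). The prolyl hydroxylase subunits P4HA1 and P4HA2 also rose in YAP-TFE3 (log2 fold change 1.28 and 1.35), and P4HA2 rose in YAP5SA and the libraries labelled TAZ4SA (0.997 and 1.01).

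Of the genes for procollagen processing and cross-linking, 6 rose and 3 fell in YAP5SA (50% and 25% of the list, beside 22.7% and 21.6% of all genes), 5 and 4 in YAP-TFE3 (41.7% and 33.3%, beside 25.6% and 22.6%). In turn 4 rose and 4 fell in the libraries labelled TAZ4SA (33.3% each, beside 25.1% and 24.2%), 1 and 0 in TAZ-CAMTA1 (8.33% and 0%, beside 3.55% and 1.44%) and 2 and 4 in EVsub (16.7% and 33.3%, beside 19.8% and 17.1%). With 12 genes tested, each gene is 8.33% of this list. LOX, the lysyl oxidase that starts cross-linking of fibrils, had 7.97, 6.59 and 6.44 CPM in EV, 28.1, 25.7 and 36.3 in TAZ-CAMTA1, 61.97, 54.4 and 43.9 in YAP5SA, 39.3, 49.5 and 44.1 in the libraries labelled TAZ4SA and 135, 131 and 95.6 in YAP-TFE3. All 4 groups lay above EV (2.10, 2.93, 2.66 and 4.10 on the log2 scale, adjusted p by edgeR = 2.11e-08, 3.94e-12, 2.13e-11 and 1.66e-14). Its relative LOXL4 rose in the libraries labelled TAZ4SA and YAP5SA (1.70 and 2.02), and by 0.32 in YAP-TFE3. PCOLCE, an enhancer of the C-proteinase, fell in the libraries labelled TAZ4SA, YAP5SA, YAP-TFE3 and EVsub (-1.16, -0.97, -0.68 and -0.67).

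Of 10 collagen receptors, 6 rose and 1 fell in YAP-TFE3 (beside 25.6% and 22.6% of all genes), and 3 and 5 in YAP5SA (22.7% and 21.6%). In turn 2 rose and 6 fell in the libraries labelled TAZ4SA (25.1% and 24.2%), 3 and 1 in TAZ-CAMTA1 (3.55% and 1.44%) and 2 and 4 in EVsub (19.8% and 17.1%). The risen counts in EVsub and the libraries labelled TAZ4SA were near the share of all genes, and 9 of the 10 were higher in YAP-TFE3 than in YAP5SA, where 28.1% of all genes were. ITGA1, the alpha1 integrin subunit that binds type IV collagen, had 227, 237 and 233 CPM in EV, 744, 629 and 689.5 in YAP-TFE3 and 90.6, 95.4 and 94.2 in the libraries labelled TAZ4SA, on either side of EV (1.57 and -1.31 on the log2 scale). ITGA10, the alpha10 subunit of chondrocytes, fell in TAZ-CAMTA1, YAP-TFE3, the libraries labelled TAZ4SA and YAP5SA (-0.995, -2.11, -2.14 and -3.37). DDR2, a receptor kinase for fibrillar collagen, rose in YAP-TFE3, TAZ-CAMTA1 and YAP5SA (1.41, 0.74 and 0.60). In CAMTA1 against EVsub ITGA1 was the 1 call among the 43 tested genes of these lists (log2 fold change -0.50), with 9 at an unadjusted p under 0.05. That share, 2.33%, was near the 1.83% of all genes. In TFE3 against EV 1 of the 43 had an unadjusted p under 0.05.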

How the data were processed

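Poly(A) RNA-seq was analysed for 24 libraries of SW872 cells, 8 groups of 3, grouped by the labels. Per the labels and the study's methods, the authors prepared libraries with a stranded TruSeq mRNA kit and aligned paired reads to hg38 with Hisat2 in bcbio-nextgen. They deposited raw read counts per Ensembl gene for each library. The paper also reports pseudo-alignment with Salmon and gene counts made from it by tximport. Whether the deposited counts came from that step, and the strand setting used, are not given in the sources used here. The deposited counts were used as they stand.

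Symbols, coordinates and union exon lengths came from GENCODE release 44 on GRCh38. All genes with a mean of 5 or more counts (19997) were fitted in 1 model with 1 mean per group, by edgeR 4.0.16 in R 4.3.3 (quasi-likelihood F test, TMM scaling), with Benjamini-Hochberg adjustment over all tested genes. The SE is the log2 fold change over the root of F. CPM are counts over TMM-scaled library sizes. The fit was tested on simulated data.

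By rule, values in each library are given for the 12 chains highest per kilobase. The rule also takes up to 3 chains called higher and 3 called lower with the largest change in each comparison with empty vector. COL4A1, COL4A5, COL6A5, COL8A2, COL19A1, COL22A1, COL25A1 and COL28A1 lie outside this rule, although values in single libraries are given for them. Other chains named are given by fold changes, mean levels or highest counts. The members and lists were chosen with earlier results of these data known. Across all tested genes, the deviations of same-numbered libraries had mean correlations of -0.0257 to 0.189; 3 comparisons had 2 pairs over 0.1 and 0 had all 3, so libraries were not treated as paired, although the library numbered 3 was lowest in all 8 groups for 1 chain and in 7 groups for 3. Alternatives were DESeq2 1.42.0, total-count scaling, other filters, GC and length offsets, a replicate block, the groups compared alone, a change beyond 0.5 log2, each library left out and, added after the data were seen, the libraries numbered 1 and 2 alone. Promoter windows came from RefSeq on GRCh38.p14 and matched 32 of the 44 genes. Depth allowed no firm statement on genes under 3 counts per library.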

Additional observations from a re-analysis of the deposited data

How the results depend on the processing

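In TAZ-CAMTA1 against EV (7 chains), 12 were called with no filter beyond 1 count, 12 in a fit of the groups compared alone, 12 on the libraries numbered 1 and 2 alone, 11 with GC and length offsets and the replicate block, and 1 when a change beyond 0.5 log2 was asked for. In CAMTA1 against EVsub (3 chains) these were 6 with no filter, 5 with the groups compared alone, 7 on the libraries numbered 1 and 2 alone and 0 beyond 0.5 log2. In TFE3 against EV (0 chains) 2 were called with no filter, COL12A1 and COL3A1. With no filter 32 in place of 24 were called in YAP-TFE3 against YAP5SA and 25 in place of 19 in YAP-TFE3 against EV. Beyond 0.5 log2, 6 in place of 17 were called in EVsub against EV, 10 in place of 19 in TAZ-CAMTA1 against YAP-TFE3 and 4 in place of 12 in the libraries labelled TAZ4SA against YAP5SA. Asking for a larger change lowers the count by construction, and for the others the cause was not tested. The shares of all genes under these settings are not given here, so a gain of calls is not read as particular to the chains. The added fit on 2 libraries per group was chosen after seeing the data.

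With 1 library left out at a time, the counts ranged from 5 to 7 in TAZ-CAMTA1 against EV, 17 to 20 in TAZ4SA and in YAP-TFE3 against EV, 19 to 22 in YAP5SA against EV, 0 to 0 in TFE3 against EV, 1 to 4 in CAMTA1 against EVsub (1 without CAMTA1 library 1), 12 to 18 in EVsub against EV, 19 to 21 in TAZ-CAMTA1 against TAZ4SA, 23 to 25 in YAP-TFE3 against YAP5SA, 16 to 19 in TAZ-CAMTA1 against YAP-TFE3 and 10 to 13 in TAZ4SA against YAP5SA. The labels link same-numbered libraries by nothing but the number, and whether they also share a batch is not known. With the replicate block 9, 21, 20, 23, 0, 3 and 18 chains were called in the 7 comparisons with empty vector. Their order is TAZ-CAMTA1, TAZ4SA, YAP-TFE3, YAP5SA, TFE3, CAMTA1 and EVsub. The other 4 comparisons gave 21, 25, 21 and 14. Of the 30 changes taken by the rule for named genes, 0 reversed sign, and 28 of 510 values under alternatives lost a call. Partner ratios moved in 42 of 48 values when the longest transcript set the length, by the same factor in all groups of a pair, and class sums moved in 14 of 144 values, under total-count scaling.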
